A study of Mus musculus with 4 samples.

Results

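Antioxidant enzymes, the thiol systems that recharge them and the metallothioneins were followed in Fgf8 hypomorph and wild type mouse lungs shortly before birth. The group comprised 33 named genes, and its members were all array spots that were not controls and carried 1 of these gene names, with every probe kept. Of the 33 names, 32 were found among the 27745 gene names on the arrays, with 51 probes on 78 spots of each array. Glrx1 was not a name in the files. Of the 32 genes, 21 had 1 probe and 11 had several, and 29 of 32 were measured well enough to be tested, among 20579 genes tested in all. The hypomorph lungs carried the genotype Fgf8H/-, and the wild type lungs came from Fgf8+/+ littermates, both at E18.5 and on a mixed background written c57nl7/sv129. Lobes were dissected clear of the large vessels and airways, and each RNA pool combined 3 lungs of equal genotype. Each of 4 arrays paired 1 hypomorph pool in Cy5 with 1 wild type pool in Cy3, so there were 4 pools per genotype, which the submitters' design text calls biological repeats. No array had its dyes exchanged, so a dye bias of a probe has the same sign on every array as a genotype difference, and the 2 cannot be told apart. In whole lung RNA, fewer cells of a type and less RNA per cell cannot be told apart either.

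Superoxide dismutases turn superoxide into hydrogen peroxide, which catalase, glutathione peroxidases and peroxiredoxins remove. Glutathione and thioredoxin carry the reducing power for these peroxidases, and NRF2, encoded by Nfe2l2 and held back by KEAP1, switches on many of the genes through antioxidant response elements. Metallothioneins are small proteins rich in cysteine that bind zinc and copper, and their genes are switched on through metal response elements. In the lung, antioxidant enzymes are known for their rise late in gestation, ahead of the first breath of air.

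On each array, between 32731 and 34519 of 43379 spots were well above background for the hypomorph and between 32491 and 33744 for the wild type. Ratios are log2 of hypomorph over wild type, given as mean ± SD over the 4 arrays, and adjusted p-values come from limma's moderated test with Benjamini-Hochberg adjustment over all genes tested, where a call needs an adjusted p under 0.05. Signals are normalized log2 intensities of the named channel. The lung markers Nkx2-1, Sftpb and Sftpc were well above background in all 4 pools of both genotypes. Fgf8 itself read -0.31, -0.23, -0.09 and -0.09 on the 4 arrays and was not called (adjusted p = 0.0549). Whether its probe reads the altered stretch of the gene was not analysed here.

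Of the 29 members tested, 2 were higher in the hypomorph, 6 were lower and 21 missed the threshold, whereas with median centring in place of loess 21 were higher and 3 lower. Over all genes, median centring gave 8334 higher and 2427 lower calls, so higher calls rose there too. The 8 calls were 27.6% of the members, beside 27.2% of all genes tested, so the members were called about as often as any gene. Higher calls were 6.90% of the members, beside 14.0% of all genes, and lower calls were 20.7%, beside 13.2%. The median log2 ratio of the members was -0.0015, beside -0.0041 over all genes. Srxn1, Gpx3, Gclc, Prdx6, a Txnrd2 probe and a Sod1 probe were lower, and Prdx2 and Hmox1 were higher. All 8 differences were small, at most 1.40-fold. Without replicate 2 the counts were 0 higher and 3 lower, without replicate 3 they were 0 and 4, and without replicate 4 they were 2 and 4, and over all genes, calls fell to 730 higher and 660 lower without replicate 2, against 2879 and 2726 with all 4 arrays. Only Srxn1, Gpx3 and Txnrd2 of the 8 passed whichever single array was left out. Txnrd2 was not called with RefSeq mRNA probes alone (-0.08, adjusted p = 0.192) or with the mean of all kept probes (-0.13, adjusted p = 0.0565).

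**Figure D1:**
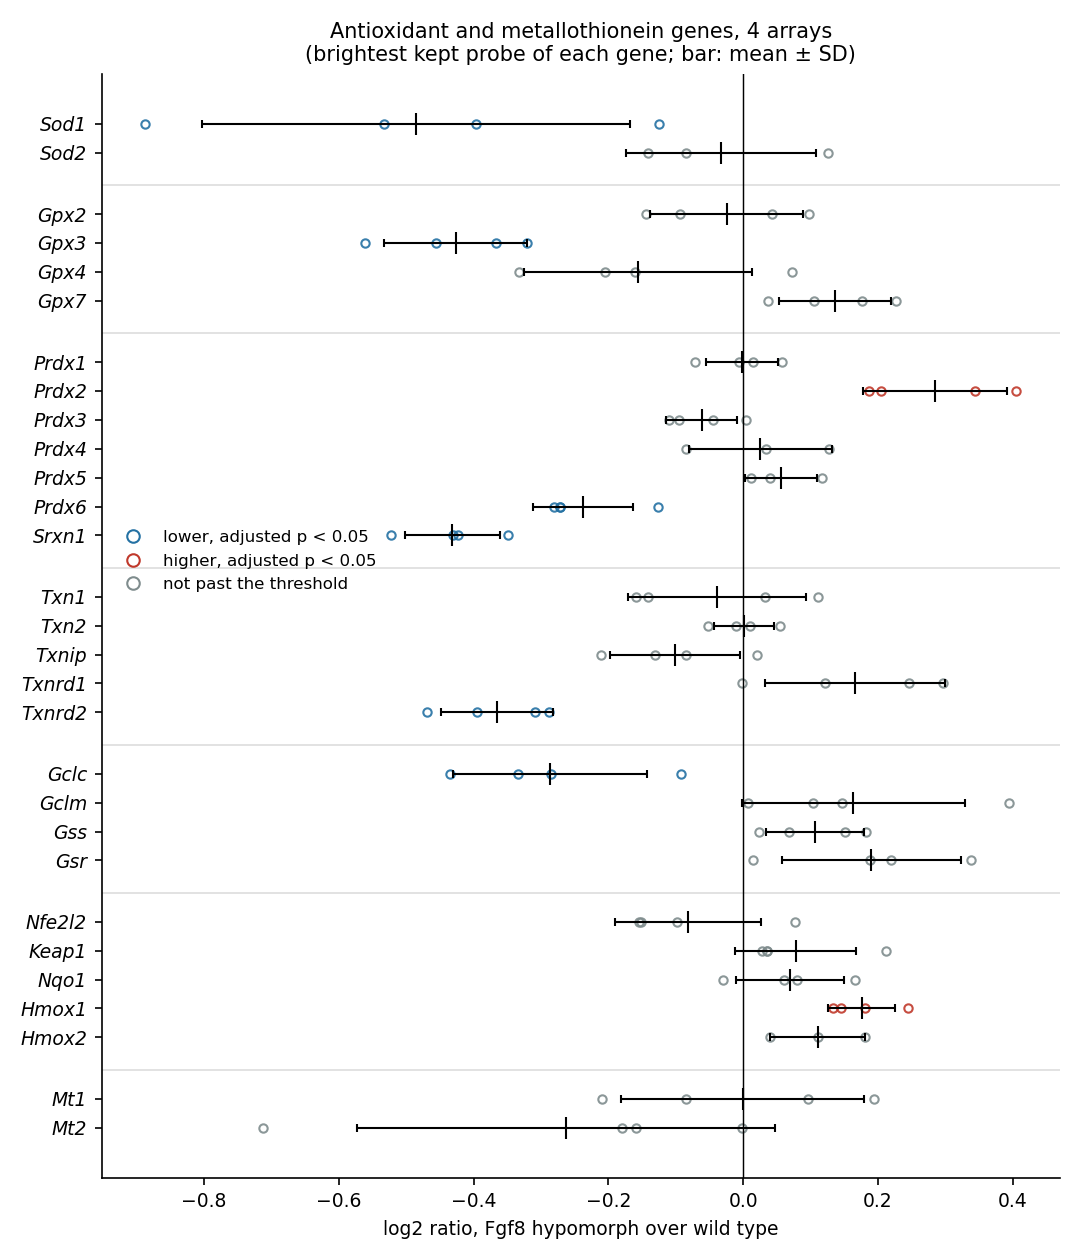
Log2 ratio of hypomorph over wild type (x axis) for the 29 tested members (y axis, grouped by role), with a circle per array and a bar for the mean ± SD. The 6 genes in blue lie below 0 and the 2 in red above 0 on all 4 arrays, and most of the others straddle 0.

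The cytosolic copper and zinc superoxide dismutase Sod1 gave opposite readings from its probes. The probe tested, at chromosome 16, 90112795 to 90112854 (mouse build mm8), belongs to a transcript record other than the RefSeq mRNA. Its signals were 10.59, 11.22, 10.64 and 10.75 in the hypomorph, against 11.48, 11.76, 11.04 and 10.88 in the wild type. The hypomorph signal was the lower on all 4 arrays, but the 2 ranges overlapped, and the gap was widest on array 1. The ratio was -0.49 ± 0.32, which is 1.40-fold lower (adjusted p = 0.032), and the call was lost without replicate 2 (adjusted p = 0.125) and without replicate 3 (adjusted p = 0.0834). A second probe of that kind, at 90111887 to 90111946, read -0.38 ± 0.29 (adjusted p = 0.0471 over all probes).

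The Sod1 probe on the RefSeq mRNA, at chromosome 16, 90115111 to 90115170, was left out of the gene test because its local background was marked as an outlier on 3 arrays. With such background marks ignored, it read 17.05, 16.97, 17.02 and 17.05 in the hypomorph, against 16.66, 16.55, 16.61 and 16.63 in the wild type. These signals did not overlap, and the ratio was 0.41 ± 0.016 (adjusted p = 0.00227 over all probes). This upward reading rests on the normalization, since the same probe read 0.10 with a loess span of 0.1 (adjusted p = 0.137), 0.11 with the scanner software's processed signals (adjusted p = 0.147) and 1.21 with median centring. Its brightness was 16.8 on the log2 scale, and the 162 genes brighter than 16 had a median ratio of 0.27 after loess. So no direction can be given for Sod1 as a gene.

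Sod2, the manganese enzyme of mitochondria, read -0.03 ± 0.14 on the 3 arrays without marks. Sod3, the secreted enzyme of the extracellular space, was well above background in 1 hypomorph and 1 wild type pool, and with mean signals of 6.40 in the hypomorph and 6.49 in the wild type it was not tested. Catalase, encoded by Cat, had background marks on 3 arrays. With these ignored its ratios were 0.11, -0.09, 0.12 and -0.05, a mean of 0.02 ± 0.11 (adjusted p = 0.773 over all probes).

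Among the glutathione peroxidases, 1 of the 4 tested genes was lower. Gpx3 encodes the secreted enzyme found in plasma and lining fluids. Its signals were 13.67, 13.51, 13.75 and 13.74 in the hypomorph, against 13.99, 13.88, 14.21 and 14.30 in the wild type. Every hypomorph pool lay below every wild type pool. The ratio was -0.43 ± 0.11, or 1.34-fold lower (adjusted p = 0.00543), and the highest adjusted p with an array left out was 0.0381. Gpx3 was called in 23 of 24 alternatives, and with median centring it read -0.06 (adjusted p = 0.561).

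The other glutathione peroxidases were not called. Gpx1, the abundant cytosolic enzyme, had background marks on 3 arrays and with these ignored read -0.11 ± 0.12 (adjusted p = 0.19 over all probes). The reading moved with the normalization. It was -0.21 with a loess span of 0.1 (adjusted p = 0.0275) and -0.19 with the processed signals (adjusted p = 0.0628). With median centring it was 0.50 (adjusted p = 0.000241). Gpx4, which reduces lipid peroxides in membranes, read -0.33, 0.07, -0.16 and -0.21 on the 4 arrays (adjusted p = 0.144). Gpx2, known from gut epithelium, read -0.02 ± 0.11. Gpx7, an enzyme of the endoplasmic reticulum, read 0.14 ± 0.08 with no overlap of its signals between genotypes (adjusted p = 0.0794).

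Of the 6 peroxiredoxins and sulfiredoxin, 1 was higher and 2 were lower. Srxn1 encodes sulfiredoxin, which repairs overoxidized peroxiredoxins and is a textbook NRF2 target. Its brightest probe lay at chromosome 2, 151802624 to 151802683. The signals were 10.49, 10.35, 10.50 and 10.52 in the hypomorph, against 10.84, 10.77, 10.93 and 11.04 in the wild type. The groups did not overlap, and the ratios of -0.35, -0.42, -0.43 and -0.52 lay close together. The mean was -0.43 ± 0.07, or 1.35-fold lower (adjusted p = 0.00344). Srxn1 was called lower in all 24 alternatives, at values between -0.46 and -0.22. These alternatives share the arrays, and some share their ratios, so they are not independent of each other. Its other 2 probes were far dimmer and were not called, at -0.10 ± 0.09 and -0.13 ± 0.15.

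The bases before the Srxn1 start in RefSeq (GRCm38.p6, + strand, chr2:152105274-152105523) are shown because Srxn1 was called under every alternative tried, with the bases before the Gpx3 start (+ strand, chr11:54902604-54902853) beside them. Capitals mark matches on either strand to TGANNNNGC, a wide form of the core of the antioxidant response element.
Srxn1: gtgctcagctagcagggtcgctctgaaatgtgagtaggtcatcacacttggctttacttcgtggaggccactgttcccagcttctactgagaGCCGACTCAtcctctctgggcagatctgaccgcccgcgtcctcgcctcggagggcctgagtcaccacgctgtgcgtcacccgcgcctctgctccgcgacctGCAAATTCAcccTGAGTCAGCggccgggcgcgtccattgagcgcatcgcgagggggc
Gpx3: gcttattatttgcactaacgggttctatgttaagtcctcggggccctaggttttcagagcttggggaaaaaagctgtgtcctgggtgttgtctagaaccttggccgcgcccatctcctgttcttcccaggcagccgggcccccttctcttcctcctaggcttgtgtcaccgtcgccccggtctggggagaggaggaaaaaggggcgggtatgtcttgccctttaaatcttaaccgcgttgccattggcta
Srxn1 held 3 matches, starting 158, 57 and 45 bases before the start, and Gpx3 held 0. At least 3 matches occurred in 1.06% of 32851 mouse promoters in the same window of 250 bases, and at least 1 in 35.2%. The table held 34 promoters for 27 of the members, and 12 of these 34 held at least 1, or 35.3%. The stricter form TGACNNNGC, whose matches all lie within matches to the wide form, occurred in 10.2% of all promoters and in 17.6% of the member promoters, 6 of 34, namely those of Gclm, Mt2, Nfe2l2, Prdx1, Sod1 and Txnrd1. Of these 6 genes, only Sod1 was called, through a probe on another transcript record, beside 27.2% of all genes tested. The 6 are too few to set apart from that share. Srxn1, which was picked by its call, held no match to the stricter form, so its matches belong to the wide form only. A match is a description of letters and was not tested as a binding site.

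Prdx2, a cytosolic peroxiredoxin that is very abundant in red blood cells, was higher by 1.22-fold. Its brightest probe read 16.12, 16.19, 16.02 and 15.92 in the hypomorph, against 15.92, 15.78, 15.68 and 15.73 in the wild type, and the ranges did not overlap. The ratio was 0.29 ± 0.11 (adjusted p = 0.0152). The other 2 probes, both less bright, read 0.19 ± 0.07 (adjusted p = 0.0309 over all probes) and 0.17 ± 0.10 (adjusted p = 0.0575). The brightest probe fell to 0.13 with a loess span of 0.1 (adjusted p = 0.0884), and with the processed signals it also read 0.13 (adjusted p = 0.128), whereas the 2 dimmer probes then read 0.23 to 0.24. Without replicate 2 and without replicate 3 the adjusted p was 0.0769 and 0.0699. Of the 11 red cell markers tested, 0 were higher and 1 was lower. With marks ignored 2 were higher and 2 lower of 14, and the globins could be tested only there. Hba-a1 read 0.69 at a brightness of 18.0, but 0.13 with the processed signals. The 4 beta globin probes, named Hbb-b1 in the files, read -0.37, 0.36, 0.41 and 0.30, but -0.78, -0.20, -0.17 and -0.10 with the processed signals. Whether red cell content had a part in the Prdx2 ratio was not tested.

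Prdx6, which reduces phospholipid peroxides and is abundant in lung, was read by 4 probes, all below 0 on all 4 arrays. The probe tested, on the RefSeq mRNA at chromosome 1, 163083948 to 163084007, read 12.87, 12.69, 12.84 and 13.06 in the hypomorph, against 12.99, 12.96, 13.11 and 13.34 in the wild type. The ranges overlapped, yet the hypomorph signal was the lower on each array. The ratio was -0.24 ± 0.07 (adjusted p = 0.0164), and the adjusted p was 0.0869, 0.0758 and 0.0576 without replicates 2, 3 and 4. The brightest probe, which had marks on 2 arrays, read -0.14 ± 0.10 with these ignored (adjusted p = 0.085 over all probes). That probe read -0.25 with a loess span of 0.1 (adjusted p = 0.0259) and -0.32 with the processed signals (adjusted p = 0.0238). With median centring it read 0.47 (adjusted p = 0.000713). The probe on another transcript record, at 163085638 to 163085697, read -0.84 ± 0.29 (adjusted p = 0.00559 over all probes), with -1.24 on array 1. With median centring the tested probe read 0.04 (adjusted p = 0.673).

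The remaining peroxiredoxins showed no call. Prdx1, a cytosolic enzyme, read -0.0015 ± 0.05. Prdx3 (-0.06 ± 0.05), the mitochondrial form, Prdx4 (0.03 ± 0.11, n = 3 arrays), the form of the secretory pathway, and Prdx5 (0.06 ± 0.05, n = 3 arrays) also stayed near 0.

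Within the thioredoxin system, 1 of 5 tested genes was lower. Txnrd2, the thioredoxin reductase of mitochondria, was represented by a probe on a transcript record other than the RefSeq mRNA, at chromosome 16, 18351287 to 18351346. It read 10.61, 10.63, 10.64 and 10.61 in the hypomorph, against 11.07, 10.94, 10.93 and 11.01 in the wild type. No signals overlapped, and the ratio was -0.37 ± 0.08 (adjusted p = 0.00613). The 2 probes on the RefSeq mRNA read -0.08 ± 0.07 and 0.05 ± 0.07 and were not called, so the lower reading belongs to 1 of 3 probes. Txn2, the thioredoxin of mitochondria, showed the reverse arrangement. Its tested probe, on another record, read 0.0007 ± 0.04. Its RefSeq probe, at chromosome 15, 77742497 to 77742556, read 12.44, 12.37, 12.48 and 12.59 in the hypomorph, against 12.21, 12.10, 12.24 and 12.34 in the wild type. These did not overlap, and the ratio was 0.25 ± 0.02 (adjusted p = 0.00948 over all probes).

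Txnip, which binds and blocks thioredoxin, read -0.10 ± 0.10 with its brightest probe, which was not called, and -0.24 ± 0.16 with its second probe (adjusted p = 0.0435 over all probes). Txn1, the cytosolic thioredoxin, read -0.16, 0.03, -0.14 and 0.11, with arrays on both sides of 0. Txnrd1, the cytosolic reductase and an NRF2 target, read 0.17 ± 0.13 (adjusted p = 0.0881). A glutaredoxin probe named Glrx in the files, which the rule did not take, read 0.31, 0.28, 0.28 and 0.13. Its mean of 0.25 ± 0.08 passed (adjusted p = 0.0152), though leaving out replicate 2 or 3 gave an adjusted p of 0.0829 or 0.0705.

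Of the 4 genes of glutathione synthesis and recycling, 1 was lower. Gclc, the catalytic subunit of the rate-limiting enzyme, read 13.54, 13.52, 13.55 and 13.46 in the hypomorph, against 13.82, 13.96, 13.65 and 13.80 in the wild type. The groups did not overlap, and the ratio was -0.29 ± 0.14 (adjusted p = 0.0241). Gclm, the modifier subunit, read 10.21, 9.73, 10.09 and 9.95 in the hypomorph, against 9.81, 9.59, 9.98 and 9.95 in the wild type. These overlapped, and its ratio of 0.16 ± 0.17 was not called (adjusted p = 0.127). The difference between the subunits was not tested. Gss, which completes glutathione, read 0.11 ± 0.07 (adjusted p = 0.127). Gsr, which regenerates it, read 0.19 ± 0.13 (adjusted p = 0.0626) and was called higher in 8 of 24 alternatives. Gclc was not called without replicate 2 (adjusted p = 0.104), without replicate 4 (adjusted p = 0.0772), with the processed signals (-0.25, adjusted p = 0.0588) or with median centring (0.05, adjusted p = 0.571).

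**Figure D2:**
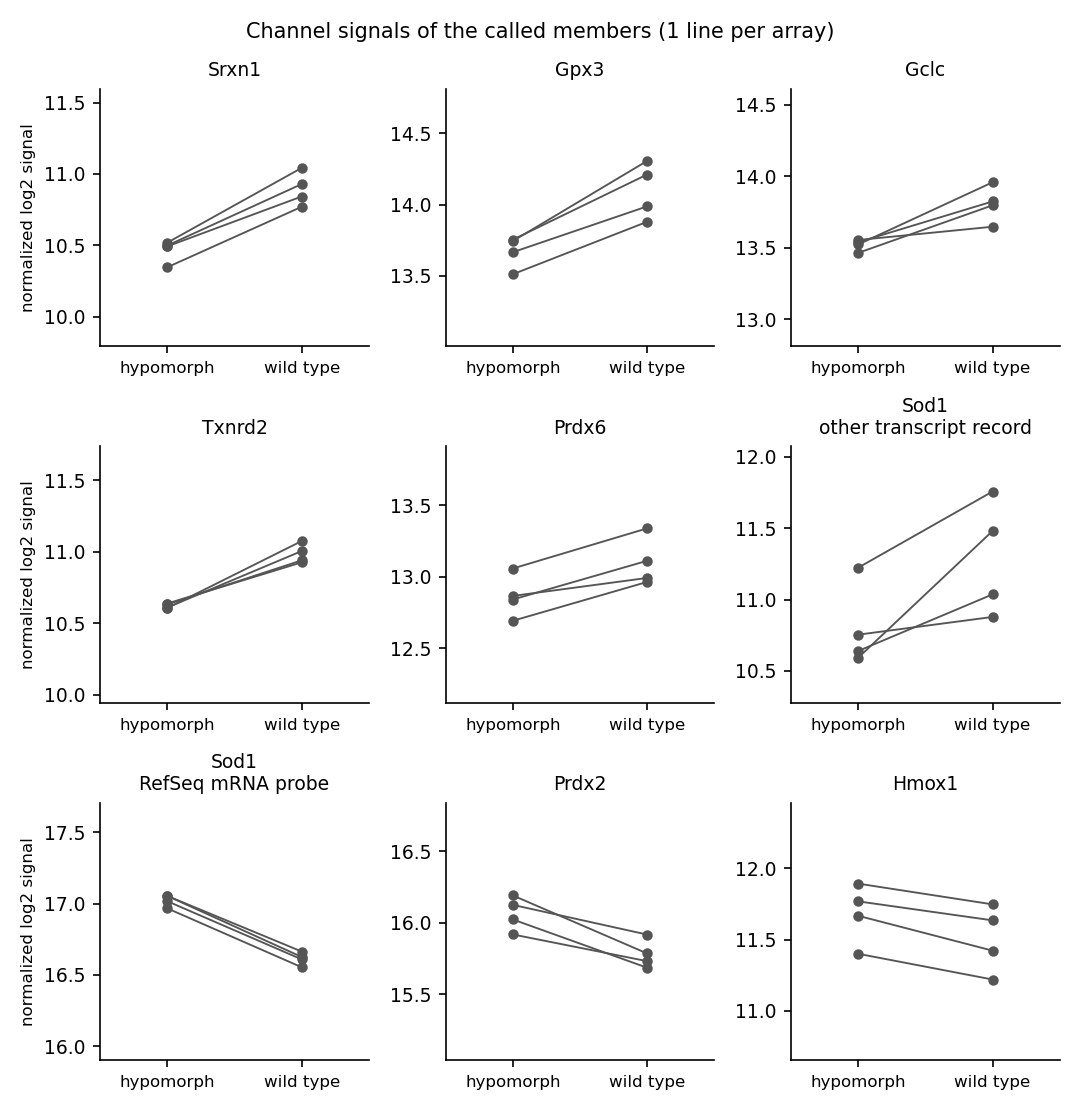
Normalized log2 signal (y axis) in the hypomorph (left) and wild type (right) pools of each array for the called members, with a line per array and 2 panels for Sod1. Lines climb to the right for the 6 lower members and descend for Prdx2, Hmox1 and the RefSeq mRNA probe of Sod1.

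The NRF2 switch showed no call, and 1 inducible enzyme did. Nfe2l2 read -0.08 ± 0.11 with its brightest probe, while its second RefSeq probe read 0.11 ± 0.03 over 3 arrays and the probe on another record read -0.08 ± 0.17. Keap1 read 0.21, 0.03, 0.04 and 0.04 (adjusted p = 0.267). Nqo1, a quinone reductase used as a gauge of NRF2 activity, read 0.07 ± 0.08 (adjusted p = 0.3). Hmox1, the inducible heme oxygenase, read 11.67, 11.40, 11.77 and 11.89 in the hypomorph, against 11.42, 11.22, 11.63 and 11.75 in the wild type. The ranges overlapped, yet the hypomorph pool was the higher on each array. Its ratio was 0.18 ± 0.05, or 1.13-fold higher (adjusted p = 0.0286). The call was lost without replicates 2, 3 and 4 in turn (adjusted p = 0.115, 0.0879 and 0.068) and with separate channels (adjusted p = 0.0646). Hmox2, the constitutive form, read 0.11 ± 0.07 over 3 arrays (adjusted p = 0.18).

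Neither metallothionein was called, and both varied between arrays. Mt1 read 12.67, 12.49, 12.80 and 12.71 in the hypomorph, against 12.48, 12.39, 12.89 and 12.92 in the wild type. Its ratios of 0.19, 0.10, -0.08 and -0.21 averaged -0.0010 ± 0.18 (adjusted p = 0.993). A dimmer Mt1 probe on another record read -0.16 ± 0.10 (adjusted p = 0.0643 over all probes). Mt2 read 14.23, 13.99, 14.57 and 14.01 in the hypomorph, against 14.23, 14.17, 14.73 and 14.72 in the wild type. Array 4 stood apart at -0.71, beside -0.0010, -0.18 and -0.16 on arrays 1 to 3. The mean was -0.26 ± 0.31 (adjusted p = 0.137), and without replicate 4 it was -0.11 (adjusted p = 0.22). With median centring Mt2 read 0.16 (adjusted p = 0.243). Array 4 also gave the lowest Mt1 ratio and the lowest ratio of Mt3 (-0.33), a metallothionein known from brain, whose mean was -0.18 ± 0.12 (adjusted p = 0.067). Mt4, known from squamous epithelia, read 0.0062 ± 0.06, and Mtf1, the factor that binds metal response elements, read 0.03 ± 0.14.

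The bases before the RefSeq starts of Mt2 (GRCm38.p6, + strand, chr8:94172368-94172617) and Mt1 (+ strand, chr8:94178839-94179088) are shown because metallothionein genes are known for their metal response elements. They were chosen after their values were seen. Capitals mark matches on either strand to TGCACNC or TGCGCNC, the core of the metal response element.
Mt2: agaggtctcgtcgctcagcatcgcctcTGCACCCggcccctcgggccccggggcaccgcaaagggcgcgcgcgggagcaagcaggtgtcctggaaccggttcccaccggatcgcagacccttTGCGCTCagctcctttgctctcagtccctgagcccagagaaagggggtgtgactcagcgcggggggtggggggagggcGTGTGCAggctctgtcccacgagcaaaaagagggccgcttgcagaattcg
Mt1: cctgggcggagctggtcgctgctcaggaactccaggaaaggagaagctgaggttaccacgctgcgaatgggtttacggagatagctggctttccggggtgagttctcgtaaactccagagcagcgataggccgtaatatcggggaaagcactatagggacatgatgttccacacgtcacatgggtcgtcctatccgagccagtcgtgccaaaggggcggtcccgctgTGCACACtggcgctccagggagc
Mt2 held 3 matches, starting 223, 128 and 50 bases before the start, and Mt1 held 1, starting 23 bases before it. Only the bases shown were searched, so elements further upstream or after the RefSeq start were not counted for either gene. At least 3 occurred in 1.26% of promoters and at least 1 in 21.4%, beside 23.5% of the member promoters, or 8 of 34. Mt2 also held a match to TGACNNNGC, starting 79 bases before the start, which overlaps none of its metal response matches. In Gclm alone, a match to each of the 2 kinds of element overlapped.

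The member probes were also counted by the kind of transcript record they belong to. Over all 31316 probes with background marks ignored, 26.7% were called, 13.8% higher and 12.9% lower. Of 42 member probes on RefSeq mRNAs, 5 were higher and 5 lower, beside 15.6% and 13.7% of all such probes. Of 8 member probes on other records, 0 were higher and 4 were lower, beside 10.2% and 11.5%. The 4 were the 2 probes of Sod1 and 1 each of Prdx6 and Txnrd2. The 8 are too few to set apart from these shares, and 2 of them read the same gene. All 4 had their lowest ratio on array 1, at -0.89 and -0.70 for Sod1, -1.24 for Prdx6 and -0.47 for Txnrd2. The uncalled probes of Mt1 (-0.27) and Nfe2l2 (-0.33) also had their lowest there, whereas those of Prdx4 and Txn2 did not. What these records represent was not tested, and no annotation of build mm8 was used here to place the probes in exons, introns or UTRs. With RefSeq mRNA probes alone and background marks ignored, 6 members were higher and 3 were lower. The 6 were Prdx2, Hmox1, Sod1, Txn2, Gsr and Gpx7, and the 3 were Gpx3, Srxn1 and Gclc.

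**Figure D3:**
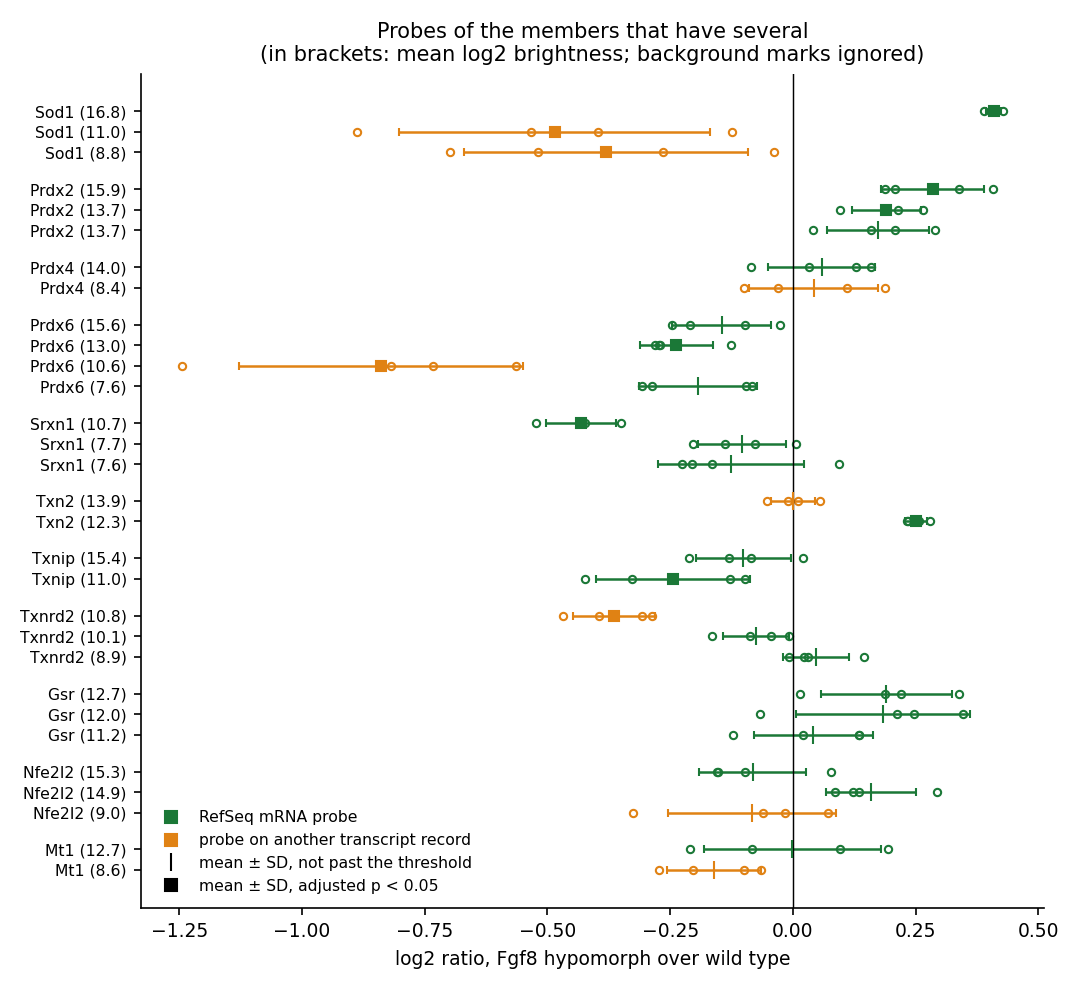
Log2 ratio of hypomorph over wild type (x axis) for each tested probe of the members with several (y axis, brightness in brackets), with a circle per array and a mark for the mean ± SD, background marks ignored. RefSeq mRNA probes are green and probes on other records orange, and the colours part to opposite sides of 0 for Sod1.

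The ratio of bright members depended on the normalization. The all-gene median was 0.13 when each array was centred on its median in place of loess, and 21 members were then higher and 3 lower, with a member median of 0.37. Over all genes, 8334 were then higher and 2427 lower, and the list counts with median centring below stand beside these. Ratios of Sod2, Gpx4, Prdx1, Txn1, Txnip and Nfe2l2, all of brightness above 14, then lay between 0.42 and 0.64. Srxn1, Txnrd2 and the tested Sod1 probe, at brightness near 11, remained lower, at -0.24, -0.17 and -0.28. With a loess span of 0.1, 1 member was higher and 6 were lower, and with the processed signals 1 was higher and 5 were lower.

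**Figure D4:**
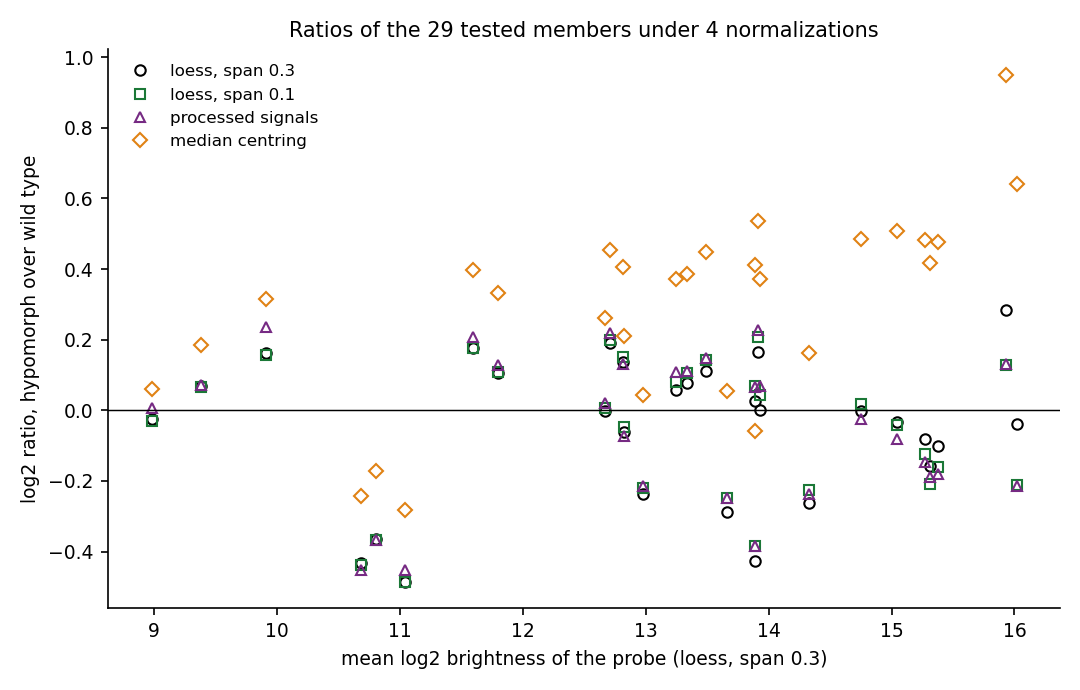
Log2 ratio of hypomorph over wild type (y axis) against mean log2 brightness (x axis) for the 29 tested members under 4 normalizations. Median centring (orange diamonds) lifts the brighter members the most, up to 0.95 for Prdx2, while the other 3 stay close together except at the bright end.

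Of 12 other regulators and partners of NRF2 that were tested, 6 were lower and 1 was higher, with a median of -0.16. Over all genes tested, 13.2% were lower and 14.0% higher. With median centring the median of the list was 0.15, with 5 higher and 2 lower. This list and those that follow were chosen with earlier results of these data known. Maff, a small MAF protein that pairs with NRF2, was 1.69-fold lower (-0.75 ± 0.08, adjusted p = 0.00132). Bach1, the repressor that competes for the same elements, was 1.54-fold lower, with ratios of -0.50, -0.81, -0.53 and -0.65 (adjusted p = 0.00318). Both passed in all 23 gene-level alternatives. Mafk (-0.32 ± 0.04, adjusted p = 0.00522) and Trim16 (-0.31 ± 0.03, adjusted p = 0.00534) were also lower, but with median centring Mafk read -0.12 and Trim16 0.03. The other 2 Trim16 probes read 0.05 and 0.0002. Mafk encodes another small MAF protein, and TRIM16 is a ubiquitin ligase tied to this pathway. No difference between this list and the members was tested.

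Other NRF2 target enzymes were split, with 3 of 15 tested higher and 3 lower, beside 14.0% and 13.2% of all genes. Their median was 0.07. Ugdh, which makes UDP-glucuronate, read -0.33 ± 0.07 (adjusted p = 0.007), and Osgin1 read -0.29 ± 0.06 (adjusted p = 0.0079). Cbr1, a carbonyl reductase, read 0.22 ± 0.05 (adjusted p = 0.0154), and Tkt, the transketolase of the pentose phosphate pathway, read 0.24 ± 0.11 (adjusted p = 0.0245). Without replicate 2 the adjusted p of Ugdh, Cbr1 and Tkt was 0.0508, 0.0837 and 0.111, and without replicate 3 that of Cbr1 and Tkt was 0.0715 and 0.0888. The other 2 Osgin1 probes read -0.02 and -0.09, and a second Tkt probe read 0.30. With median centring Ugdh read 0.08 and Osgin1 -0.14. The list then held 9 higher and 0 lower, whereas without replicate 2 it held 0 higher and 1 lower, and without replicate 3 it held 0 and 2.

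Of 21 tested glutathione transferases, which attach glutathione to reactive compounds, 5 were higher and 5 lower, beside 14.0% and 13.2% of all genes. The mu class genes Gstm1 (-0.37 ± 0.07, adjusted p = 0.00509) and Gstm3 (-0.37 ± 0.10, adjusted p = 0.00716) were lower, while the pi class gene Gstp1 (0.34 ± 0.09, adjusted p = 0.00772) and the alpha class gene Gsta2 (0.31 ± 0.13, adjusted p = 0.0179) were higher. Genes of these classes are close copies, so their probes may share signal, and a second Gstp1 probe read 0.01 and a second Gstm1 probe -0.13. With median centring Gstm1 read 0.21 and Gstm3 0.10. The list held 10 higher and 0 lower there, 2 and 2 without replicate 3, 3 and 3 without replicate 4, and 0 higher and 1 lower without replicate 2, where the adjusted p of Gstm3, Gstp1 and Gsta2 was 0.0516, 0.0509 and 0.0919.

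Of 22 other thiol redox genes, 5 were higher and 3 were lower, beside 14.0% and 13.2% of all genes, with a median of 0.09. The lower genes were Chac1 (-0.44 ± 0.06, n = 3 arrays, adjusted p = 0.00699) and Oplah (-0.31 ± 0.07, adjusted p = 0.00773), both of glutathione breakdown, and the stress sensor Sesn1 (-0.37 ± 0.05, n = 3 arrays, adjusted p = 0.00979). Glrx5, a mitochondrial glutaredoxin of iron-sulphur assembly, was higher (0.29 ± 0.08, adjusted p = 0.0101). Without replicate 2 these 4 had adjusted p of 0.0576, 0.0541, 0.0668 and 0.0645, and without replicate 3 Glrx5 had 0.053. The other probe of Oplah read 0.08 and those of Sesn1 -0.04 and -0.09. The list held 1 higher and 0 lower without replicate 2, 0 and 3 without replicate 3, 1 and 3 without replicate 4, and 1 and 1 with the mean of all kept probes. With median centring it held 19 higher and 1 lower, and Sesn1 read 0.0057.

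Of 24 tested genes of zinc, copper and iron handling, 7 were lower and 0 were higher, beside 13.2% and 14.0% of all genes. The median was -0.10, but with median centring it was 0.14, with 8 higher and 2 lower. The copper pump Atp7a was lower (-0.37 ± 0.04, adjusted p = 0.0036), and its second probe read -0.50. The iron exporter Slc40a1 read -0.27 ± 0.02 (adjusted p = 0.00736), the copper importer Slc31a1 -0.31 ± 0.03 over 3 arrays (adjusted p = 0.0133) and the zinc exporter Slc30a1, a known target of MTF1 like the metallothioneins, -0.27 ± 0.08 (adjusted p = 0.013). A second probe read -0.07 for Slc31a1 and -0.20 for Slc30a1. With median centring these 4 genes read 0.01, -0.04, -0.02 and -0.04. Without replicate 2 the adjusted p of Slc30a1 and Slc31a1 was 0.0722 and 0.0888, without replicate 3 it was 0.0507 and 0.0648, and without replicate 4 that of Slc31a1 was 0.0553. The list held 2 lower genes without replicate 2 and 2 without replicate 3.

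Of 13 genes of superoxide producing oxidases, 2 were higher and 2 were lower, beside 14.0% and 13.2% of all genes. Under median centring 6 were higher and 2 lower, and without replicate 2 or replicate 3, 0 were higher and 2 lower. Xdh, the xanthine dehydrogenase, was 1.70-fold lower (-0.77 ± 0.08, adjusted p = 0.00132), and its second probe read -0.59. Nox4, a NADPH oxidase that releases hydrogen peroxide, was 1.34-fold lower (-0.42 ± 0.14, adjusted p = 0.00809), with a second probe at -0.30. Both passed in all 23 gene-level alternatives. The higher genes were Rac2 (0.21 ± 0.05, adjusted p = 0.0183) and Duox2 (0.42 ± 0.23, adjusted p = 0.0227), whose adjusted p without replicate 2 was 0.093 and 0.106. Without replicate 3 these were 0.0624 and 0.0849, and without replicate 4 Rac2 had 0.0503.

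Metallothioneins are also known to respond to glucocorticoids. Of 11 glucocorticoid induced genes, 8 were lower and 0 were higher, beside 13.2% and 14.0% of all genes, with a median of -0.24. This list too was chosen with earlier results of these data known. With median centring 3 were higher and 1 lower, with a median of 0.05. Cebpd, a transcription factor gene, was 1.92-fold lower, with ratios of -0.87, -0.99, -1.07 and -0.85 (adjusted p = 0.00121). With median centring it read -0.23. The list held 4 lower genes without replicate 2 and 4 without replicate 3. Mt1 and Mt2 did not pass beside them, and the difference was not tested.

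**Figure D5:**
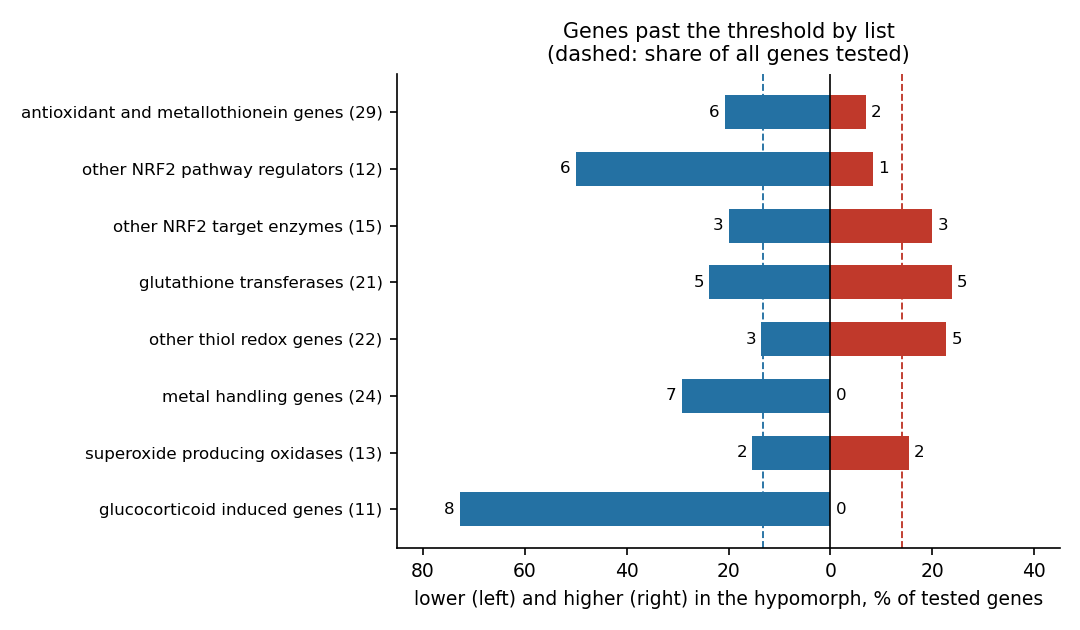
Share of tested genes called lower (blue, to the left) and higher (red, to the right) in the hypomorph, in % (x axis), for the members and 7 further lists (y axis, tested genes in brackets), with the number of called genes at each bar. Counts are after loess. Dashed lines mark the shares over all genes tested, 13.2% lower and 14.0% higher, beside 20.7% and 6.90% for the members.

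The part of cell type markers in the member ratios was not tested. Lung epithelium had 2 higher and 1 lower of 10 tested, endothelium 1 and 4 of 8, mesenchyme 1 and 2 of 8, macrophages and leukocytes 0 and 2 of 8, liver 0 and 1 of 4, and muscle 1 and 2 of 11. Over all genes tested, 14.0% were higher and 13.2% lower. With median centring, counts were 8 higher and 0 lower for epithelium, 6 and 0 for endothelium and 4 and 0 for mesenchyme. Macrophages and leukocytes then had 2 and 1, liver 0 and 2, and muscle 3 and 2. The endothelium calls went from mostly lower to only higher, while over all genes 8334 were then higher and 2427 lower. Without replicate 2, endothelium had 0 higher and 0 lower, and epithelium 0 and 1. The bright surfactant gene Sftpc and club cell gene Scgb1a1 could be tested only with marks ignored, where epithelium counted 4 higher and 4 lower of 13. There Sftpc read 0.46 and Scgb1a1 -0.16, but with the processed signals they read -0.10 and -0.31.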

How the data were processed

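Per the submitters' processing notes, the scans were quantified by Agilent Feature Extraction 9.5.1. The deposited mean and background intensity values are raw scanner values, and the processed intensity values are background-subtracted and dye-normalized, per the file headers. The log10 ratio column deposited with them is red over green of the processed values. The deposited series table holds log2 values that equal log2 of processed red over green, that is hypomorph over wild type, to within 5e-10, with column medians of -0.02, 0, -0.05 and -0.02. All 4 arrays shared 1 slide and 1 scan.

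Mean intensities were corrected with normexp (offset 50) and normalized within arrays by loess (span 0.3) in limma 3.58.1 under R 4.3.3. Control spots and outlier-marked spots, 4.92% to 5.12% per array, were left out. Of the members' spots, 33 over the 4 arrays were marked, 6 of them for the spot itself. A probe was kept if well above background in a channel on at least 3 arrays, and the brightest kept probe stood for a gene. Mean log2 ratios were tested against 0 with limma and adjusted over all genes, or over all probes where stated. With 4 arrays, their number limits the precision. Probe positions are those in the files (mm8). For 24375 of 41174 probes the record was found in RefSeq's GRCm38.p6 table, and the gene name was taken from it, whether or not it differed. Only the moderated test was tried on simulated ratios. Background correction, loess, the marks, the filter and the choice of probe were not simulated. The members and lists were chosen with earlier results of these data known. Named genes were all members, Fgf8, up to 4 called genes with the smallest p from each further list, and a few metal genes.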

Additional observations from a re-analysis of the deposited data

Results flagged for a closer look

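Of 50 member probes with values on 4 arrays, 2 had an array far from the other 3 relative to the spread of the 4, where chance alone gives about 1 in 20. The Keap1 probe read 0.2116 on array 1, and its gap to the nearest other array was 0.955 of the range. The tested Prdx6 probe read -0.1267 on array 1, with a gap of 0.938 of the range, and without that array its call stood (adjusted p = 0.00839).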

How the results depend on the processing

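With median centring, 21 members were higher and 3 lower, the member median was 0.37, and over all genes 8334 were higher and 2427 lower. There, ratios turned above 0 for Sod2 (0.51), Gpx4 (0.42), Prdx1 (0.49), Prdx3 (0.21), Prdx6 (0.043), Txn1 (0.64), Txnip (0.48), Gclc (0.055), Nfe2l2 (0.48), Gpx2 (0.06), Mt1 (0.26) and Mt2 (0.16). Sod1 read 0.41 with marked spots kept, with background marks ignored, and with RefSeq mRNA probes and background marks ignored, where another probe stands for it. Higher members numbered 1 with the processed signals, the series table or a loess span of 0.1, 4 with RefSeq mRNA probes or separate channels, and 6 with RefSeq mRNA probes and background marks ignored, where 3 were lower. Leaving out 1 array gave 0 to 2 higher and 3 to 6 lower members, and 730 to 2947 higher and 660 to 2951 lower genes. The causes were not tested. All alternatives rest on the same arrays, and some give the same ratios, as the series table and the processed signals do. A count of alternatives is therefore not a count of independent checks. Alternatives on marks and RefSeq probes were chosen after seeing the data. The test of ratios against 0 is itself paired, since each ratio pairs the pools of 1 array. With 1 group of ratios, no further pairing was possible. Sod3 lay near background, and Cat and Gpx1 rest on marked spots.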
